A study of Mus musculus with 3 samples.

Results

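Open chromatin around 34 genes of blood and lymphatic vessels was examined in the mouse uterus on gestation day 4. The genes comprised 7 ligands, 11 receptors, 4 Ets-type transcription factors, 4 other transcription factors, 6 junction and surface markers and 2 other endothelial products. A peak was assigned to a gene when it overlapped the annotated span of the gene, or the 10 kb on either side, by at least 1 base. By this rule 28 of the 12413 peaks in the list belonged to the vascular genes. The genes were listed by function and not by a cut on the peak values, but earlier results of these data were known when the list was chosen.

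The tissue came from untreated wild-type C57BL/6J females, 6 to 10 weeks old, that had been mated with fertile males and carried blastocysts. Whole uteri were taken, so epithelium, stroma, muscle, vessels and immune cells were mixed. FAIRE-seq, short for formaldehyde-assisted isolation of regulatory elements with sequencing, recovers DNA that formaldehyde does not bind to protein, which is largely DNA free of nucleosomes. The 3 samples form 1 group with no comparison group, and the single peak list names none of them. No value below therefore has a spread between mice or a test between samples, and library depth is unknown. In a whole organ, fewer cells of a type and less open chromatin per cell cannot be told apart.

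Vessels grow when ligands of the vascular endothelial growth factor (VEGF) family bind receptor tyrosine kinases on endothelial cells. The angiopoietins and their receptor Tek then steady the new vessel, platelet-derived growth factor draws in pericytes, and ephrin-B2 with its receptor EphB4 separates arteries from veins. Ets-type factors bind the control regions of most endothelial genes, whereas Prox1 directs the lymphatic fate. In the uterus, vessels become leaky at the implantation site and are remodelled as the decidua forms.

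The DNA just upstream of the start site is shown for 6 genes, because the presence of a peak at the start followed the base composition of this stretch. The first 4 are the genes with the strongest start-site peak among the ligands (Efnb2), receptors (Nrp2), Ets-type factors (Ets2) and other transcription factors (Prox1). Tie1 and Emcn, which had no peak, were added after their values were seen. Capitals mark CpG dinucleotides, and each stretch runs 5′ to 3′ along the gene's own strand towards the start site (RefSeq, build GRCm38.p6).
Efnb2 (chr8:8661243-8661492, minus strand): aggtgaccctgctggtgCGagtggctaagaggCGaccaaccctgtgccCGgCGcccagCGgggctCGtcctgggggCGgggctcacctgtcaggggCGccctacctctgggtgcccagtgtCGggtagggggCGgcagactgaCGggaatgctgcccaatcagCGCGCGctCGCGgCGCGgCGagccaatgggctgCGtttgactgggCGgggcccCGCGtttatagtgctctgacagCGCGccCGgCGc
Nrp2 (chr1:62703067-62703316, plus strand): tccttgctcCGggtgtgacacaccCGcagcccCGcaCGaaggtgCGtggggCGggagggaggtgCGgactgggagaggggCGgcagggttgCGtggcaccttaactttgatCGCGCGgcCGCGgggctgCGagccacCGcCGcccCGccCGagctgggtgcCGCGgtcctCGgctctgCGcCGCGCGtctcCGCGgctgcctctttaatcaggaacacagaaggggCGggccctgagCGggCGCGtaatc
Ets2 (chr16:95702157-95702406, plus strand): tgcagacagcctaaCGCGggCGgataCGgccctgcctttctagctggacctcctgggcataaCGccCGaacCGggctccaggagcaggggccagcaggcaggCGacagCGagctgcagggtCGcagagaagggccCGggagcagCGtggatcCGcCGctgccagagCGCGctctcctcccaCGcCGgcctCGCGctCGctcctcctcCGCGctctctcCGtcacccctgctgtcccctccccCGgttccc
Prox1 (chr1:190170828-190171077, minus strand): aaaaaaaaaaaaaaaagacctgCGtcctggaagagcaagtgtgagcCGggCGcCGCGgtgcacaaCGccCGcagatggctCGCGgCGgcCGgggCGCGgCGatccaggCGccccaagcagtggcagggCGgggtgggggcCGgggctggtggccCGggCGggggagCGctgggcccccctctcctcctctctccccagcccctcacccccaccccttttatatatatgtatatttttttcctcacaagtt
Tie1 (chr4:118489850-118490099, minus strand): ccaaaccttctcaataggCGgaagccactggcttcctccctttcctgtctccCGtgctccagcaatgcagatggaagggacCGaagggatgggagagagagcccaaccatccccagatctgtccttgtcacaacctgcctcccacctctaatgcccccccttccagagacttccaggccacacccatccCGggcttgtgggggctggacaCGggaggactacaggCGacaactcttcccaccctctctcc
Emcn (chr3:137340828-137341061, plus strand): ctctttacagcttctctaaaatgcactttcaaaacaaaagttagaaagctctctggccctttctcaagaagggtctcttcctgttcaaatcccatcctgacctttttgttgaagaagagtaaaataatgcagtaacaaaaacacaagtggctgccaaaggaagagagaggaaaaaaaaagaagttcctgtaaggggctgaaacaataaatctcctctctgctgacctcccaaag

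Peaks covered all 250 of these bases at Efnb2 and at Ets2 and 238 of the 250 at Nrp2. The Prox1 peak lay downstream of its start and covered 0 of the bases shown. The stretches held 27 CpG at Efnb2, 32 at Nrp2, 25 at Ets2 and 20 at Prox1. The Tie1 stretch held 6, and the 234 bases of Emcn that lie outside its annotated span held 0. Efnb2, Nrp2, Ets2 and Prox1 also contained the GC box GGGCGG, the site of Sp and Klf factors, 3, 5, 1 and 2 times, whereas Tie1 and Emcn contained it 0 times. Other promoters without a peak did contain it, namely those of Kdr, of the second Tal1 start and of the inner Vegfa start. Efnb2 and Prox1 further carried a TATA box (TATAAA, on the opposite strand), beginning 30 and 34 bases before the start.

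As a group, and with gene span left aside, the vascular genes carried peaks about as often as other genes. A peak was present in the span or flanks of 21 of the 34 (61.8%), against 57.6% of the 21519 protein-coding genes. The median fold enrichment over local background of their peaks, the authors' own value for each peak, was 5.06. Its 95% order-statistic interval over the 28 peaks was 4.25 to 6.01, and the median of the whole list was 5.80. Peaks are not replicates and some share a gene, so the interval is a description and not a test. The highest of the 28 was 13.7, and 10 of the 28 lay above the median of the list. The median local background under the 28 peaks was 8.25, close to the 8.59 of the list. With the 6207 peaks of highest fold alone, 10 of the 34 genes had one (29.4%, against 36.2% of coding genes). Longer genes had a peak more often, from 41.5% of coding genes under 10 kb to 73.3% of those of 100 kb or more. The median span of the vascular genes was 43.0 kb and that of all coding genes 17.4 kb. By span, a peak was present at 1 of 3 vascular genes under 10 kb and 9 of 12 of 10 to 30 kb. It was present at 4 of 9 of 30 to 100 kb and 7 of 10 of 100 kb or more. The shares of coding genes in the same order were 41.5%, 61.1%, 70.1% and 73.3%.

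Start sites could be placed for 19 of the 34 genes. A peak within 1 kb of a start was found at 12 of these 19 (63.2%), against 46.7% of the 17273 coding genes with a start site in the same table. For the other 15, only the outer ends of the gene were used, and 0 of 15 had a peak within 1 kb of either end, against 44.1% of such coding genes. Both sets together gave 12 of 34 (35.3%), against 46.2% of all coding genes. The 15 were Pecam1, Cdh5, Angpt1, Angpt2, Fli1, Ets1, Lmo2, Vwf, Esam, Plvap, Nos3, S1pr1, Pdgfb, Pdgfrb and Lyve1. A peak inside one of them may lie at an internal start site.

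**Figure D1:**
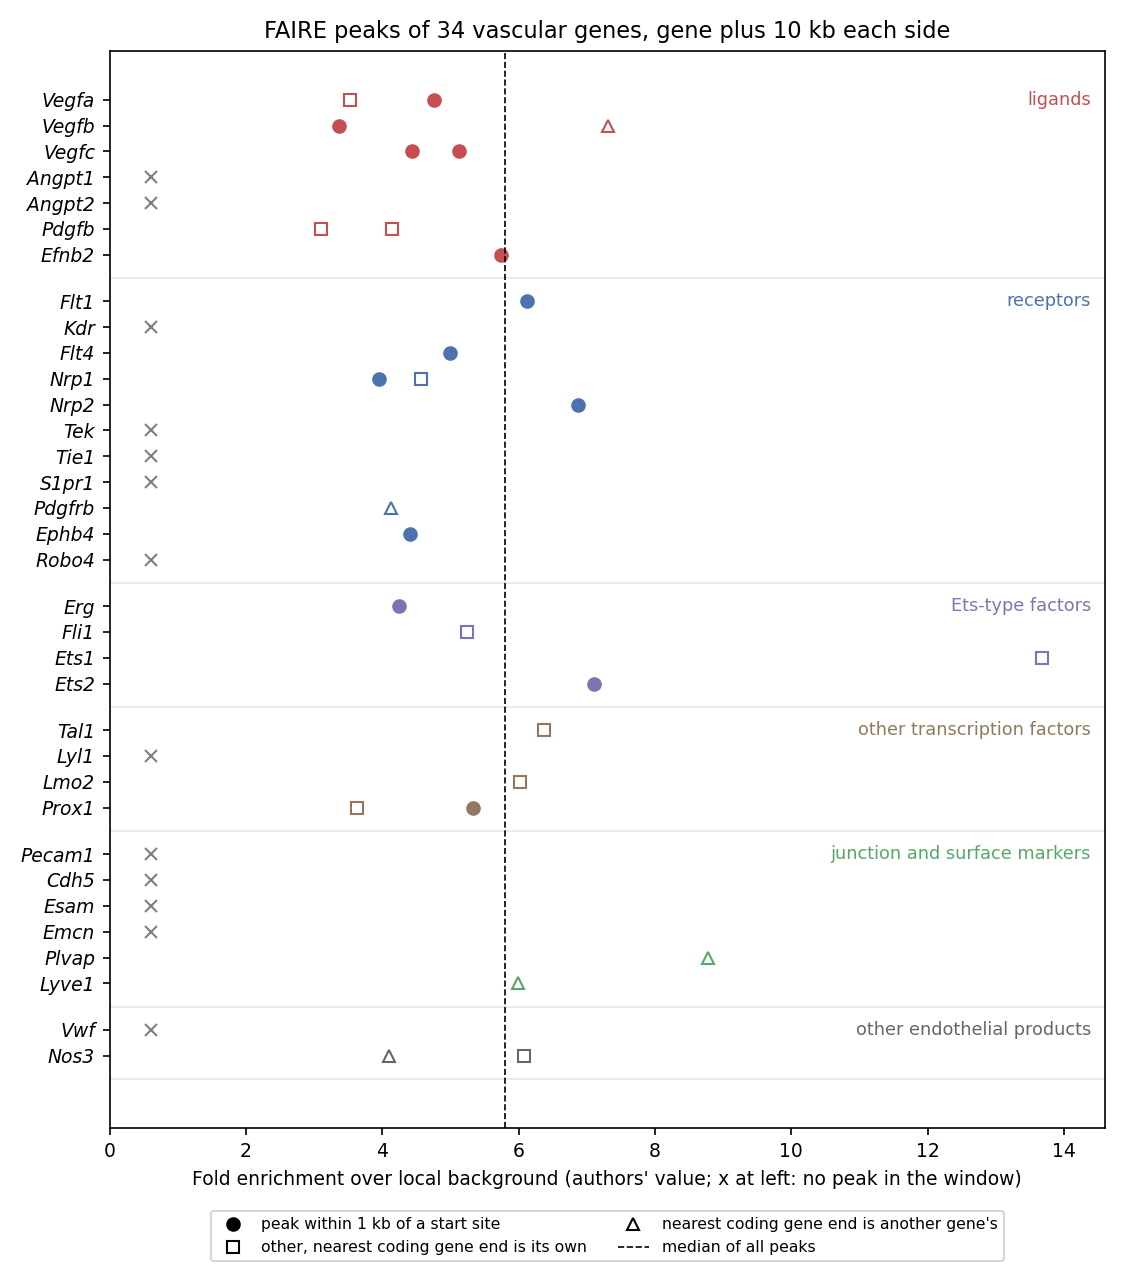
Fold enrichment (horizontal axis, the authors' value over local background) of each of the 28 peaks, by gene and role. Filled circles are peaks within 1 kb of a start site, open squares other peaks nearest to the gene's own end, triangles peaks nearest to another coding gene's end, and crosses genes with no peak; Ets1 at 13.7 stands far right of the median of all peaks (dashed, 5.80), and 4 of the 6 junction and surface markers have no peak.

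The roles differed in how many genes carried a peak. All 4 Ets-type factors had one, as did 3 of 4 other transcription factors, 5 of 7 ligands and 6 of 11 receptors. Of all coding genes, 57.6% had one. Only 2 of 6 junction and surface markers had one. For both, the nearest coding gene end belonged to a neighbouring gene, although the Plvap peak lay inside Plvap. Counting only peaks nearest to the gene's own end left 18 of 34 genes (52.9%, against 45.8% of all coding genes). These were all 4 Ets-type factors, 3 other transcription factors, 5 ligands, 5 receptors, 0 of 6 junction and surface markers and Nos3. A peak within 1 kb of a start site or gene end was found at 4 ligands, 5 receptors, 2 Ets-type factors, 1 other transcription factor and 0 junction and surface markers. The share over all coding genes was 46.2%. Of the 6 markers, 5 belong to the genes with no start site in the table, of which 0 of 15 had such a peak. The count of the markers moved with the window. It was 1 of 6 with no flank, where 48.8% of coding genes had a peak. With 50 kb on each side it was 5 of 6, above the 70.8% of coding genes, so the low count did not hold there. With the 6207 peaks of highest fold alone it stayed at 2 of 6, where 36.2% of coding genes had a peak. Ligands then fell to 1 of 7 and receptors to 2 of 11, so the markers were no longer below them. Of the 65 peaks in all member windows at 50 kb, 26 were nearest to a member's end, against 23 of 28 at 10 kb. The peaks closest to Pecam1, Cdh5 and Esam lay at the ends of Tex2, Bean1 and Nrgn. Median gene span was 121 kb for the Ets-type factors, 19.7 kb for the other transcription factors and 28.5 kb for the junction and surface markers. Coding genes of 10 to 30 kb had a peak in 61.1%, and those of 100 kb or more in 73.3%. The groups are small and the genes are not replicates, so the difference between roles is a count and was not tested.

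Among the ligands, all 3 VEGF genes had peaks of their own. Vegfa, the main driver of vessel growth and permeability, had 2 peaks inside the gene. The stronger (chromosome 17, 46030890 to 46031559) reached 4.76-fold with a pileup, the signal height at the summit, of 61. Its summit lay 1286 bases downstream of the start. The weaker reached 3.52-fold, 1779 bases downstream. Both Vegfa values were below the median of the list.

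Vegfb, a VEGF family ligand of Flt1, had a weak peak of 3.37-fold, 133 bases downstream of its start (chromosome 19, 6987333 to 6987609). Its window held a second peak of 7.32-fold that was 61 bases from the end of another coding gene model, LOC114841036. The gene lies among 7 neighbours with an end in the same window, including Fkbp2 and Plcb3, so the stronger peak is not a value of Vegfb.

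Vegfc, the lymphatic growth factor, had a pair of peaks astride its start. They reached 5.12-fold, 381 bases upstream, and 4.43-fold, 260 bases downstream (chromosome 8, 54077027 to 54077310 and 54077569 to 54077980). No other peak lay within 300 kb: the next was 342949 bases from the gene, near Spcs3.

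Efnb2, the arterial membrane ligand of EphB4, carried the strongest ligand peak at a start site. It reached 5.74-fold with a pileup of 58 over 1048 bases (chromosome 8, 8660605 to 8661652), the summit lying 38 bases upstream of the start. Pdgfb, which recruits pericytes, had 2 weak peaks inside the gene, of 4.14-fold and 3.10-fold, 11812 and 10612 bases from its nearer end. Angpt1 and Angpt2, the activating and the context-dependent ligand of Tek, had none. The nearest peak to Angpt1 lay 493481 bases away, and that to Angpt2 94566 bases away, at the end of Mcph1.

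Of the 11 receptors, 6 had a peak in the window and 5 (Kdr, Tek, Tie1, S1pr1 and Robo4) had none. Nrp2, a co-receptor for VEGF-C and semaphorins, had the strongest receptor peak, at 6.88-fold with a pileup of 79 (chromosome 1, 62703079 to 62703715). Its summit was 24 bases downstream of the start. Flt1, a VEGF receptor that also acts as a decoy, reached 6.12-fold, 194 bases downstream (chromosome 5, 147725556 to 147725992). Flt4, the VEGF-C receptor of lymphatic endothelium, reached 4.998-fold, 20 bases downstream (chromosome 11, 49609543 to 49609850). Nrp1, the VEGF-A co-receptor, had 2 lower peaks, of 3.96-fold 616 bases downstream and 4.56-fold 1651 bases upstream.

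Kdr, the principal signalling receptor for VEGF-A, had no peak, and the nearest one was 161143 bases from the gene, at Srd5a3. The VEGF receptors thus differed within the family: Flt1 and Flt4 had a peak within 200 bases of their start and Kdr had none within 100 kb. Tek and Tie1, the receptor and co-receptor of the angiopoietin system, had none either, with the nearest peaks 103871 and 33640 bases away, at Mysm1 and Cdc20. With Angpt1 and Angpt2, all 4 genes of that system among the 34 lacked a peak in the window, which 57.6% of coding genes had. The promoters of Tek and Tie1 held 3 and 7 CpG. In these CpG classes 2.11% and 13.5% of all promoters had a peak within 1 kb. The promoters of Angpt1 and Angpt2 were not analysed here. Vegfc, Flt4, Nrp2 and Prox1, which act together in lymphatic vessels, each had a summit within 300 bases of a start site. These peaks reached 4.43-fold to 6.88-fold. Of coding genes with a start site, 46.7% had a peak within 1 kb of one. The promoters at these 4 starts held 25 to 37 CpG. In the CpG classes they fall in, 80.5% and 95.3% of all promoters had a peak. Lyve1, also a lymphatic gene, had no peak nearest to its own end. These pairings follow textbook pathways and were made after the values had been seen.

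Of the other receptors, Ephb4, the venous receptor of ephrin-B2, had a peak of 4.41-fold across its start (chromosome 5, 137350000 to 137350526), so that ligand and receptor of this system both did. The peak counted for Pdgfrb, the pericyte receptor of PDGF-B, lay 9049 bases outside the gene. It reached 4.12-fold and was 210 bases from the end of a predicted coding gene, Gm52351. S1pr1, the sphingosine-1-phosphate receptor that stabilises endothelial contacts, and Robo4, an endothelial Roundabout receptor, had none. S1pr1 was the gene farthest from any peak, at 536534 bases, while a peak lay 17033 bases from Robo4.

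**Figure D2:**
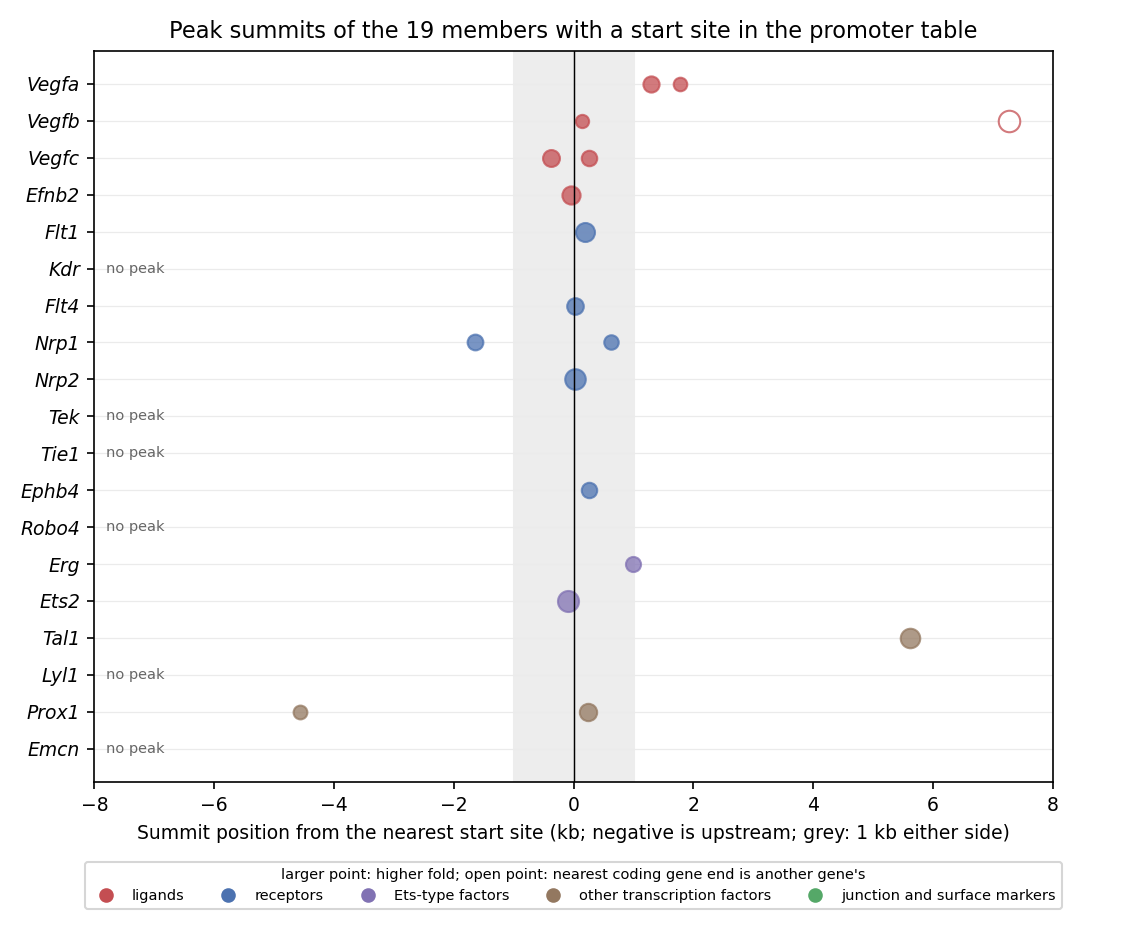
Position of each peak summit relative to the nearest start site (kb, negative is upstream) for the 19 genes with a start site in the promoter table; larger points have higher fold enrichment, and the open point is nearest to another gene's end. Of the 18 summits, 13 lie downstream of the start; the Tal1 summit lies 5609 bases inside, and Kdr, Tek, Tie1, Robo4, Lyl1 and Emcn have no peak.

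The Ets-type factors held the strongest vascular peak. Ets1, a factor of endothelial and lymphoid cells, had a single peak of 13.7-fold with a pileup of 154 and a −log10 q of 116 (chromosome 9, 32695732 to 32696271). It ranked 79 of 12413 in the list by fold, and it was the only one of the 28 above 9.93-fold, the 90% quantile of the list. The summit lay 59770 bases from 1 annotated end and 61809 from the other, in the middle of a gene of 122 kb. Transcript starts within Ets1 were not analysed here, so whether this peak lies at one was not tested. Ets2, a widely expressed relative, had a peak across its start of 7.11-fold and a pileup of 90 (chromosome 16, 95702086 to 95702864).

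Erg, which maintains endothelial identity, had a lower peak of 4.25-fold and a pileup of 33, its summit 995 bases downstream of the outermost start (chromosome 16, 95585469 to 95585766). Its other 2 start sites had none within 1 kb. Erg and Ets2 are neighbours, and the list held no peak between these 2. Fli1, the closest relative of Erg, had a peak of 5.24-fold inside the gene, 2634 bases from its high-coordinate end (chromosome 9, 32540610 to 32541197). The Ets-type peaks therefore ranged from below the lower quartile of the list (4.37) at Erg to far above its upper quartile (7.79) at Ets1.

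The other transcription factors had peaks inside the gene. Tal1, the basic helix-loop-helix factor of blood and endothelial precursors, had a peak of 6.37-fold (chromosome 4, 115063132 to 115063621). It lay 5609 bases downstream of the nearer of 2 start sites, neither of which had a peak within 1 kb. Lmo2, the bridging protein of the Tal1 complex, had one of 6.01-fold, 11460 bases from the nearer end (chromosome 2, 103970186 to 103970721). Lyl1, the paralog of Tal1, had none, and a 9.67-fold peak 13364 bases away lay at the end of Nacc1. Prox1, the lymphatic homeobox factor, had a peak of 5.33-fold 242 bases downstream of its outer start (chromosome 1, 190170465 to 190170721), and one of 3.62-fold 4566 bases upstream.

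The junction and surface markers, which define endothelial cells in most tissues, had no peak nearest to an end of their own. The Plvap peak lay inside the gene but nearer to the end of a neighbour. Pecam1 (CD31), Cdh5 (VE-cadherin) and Esam, adhesion proteins of the endothelial junction, and Emcn, a sialomucin of capillaries and veins, had no peak. The nearest peaks were 40961, 26021, 14278 and 192421 bases away, at the ends of Tex2, Bean1, Nrgn and Ddit4l. Plvap, the diaphragm protein of fenestrated vessels, had a peak of 8.78-fold inside the gene, the second highest of the 28 (chromosome 8, 71507582 to 71508001). It lay 4010 bases from the high-coordinate end of Plvap and 2100 bases from the end of a predicted neighbour, Gm46041. The peak counted for Lyve1, the hyaluronan receptor of lymphatic vessels, was 5.998-fold and lay 61 bases from the end of Rnf141.

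Of the other endothelial products, Vwf, the clotting protein von Willebrand factor, had no peak, and the nearest was 58338 bases away at Cd9. Nos3, the endothelial nitric oxide synthase, had 2 in its window and 0 inside the gene. The stronger, of 6.09-fold, lay 3474 bases beyond its high-coordinate end (chromosome 5, 24387762 to 24388284), and the weaker, of 4.10-fold, was 729 bases from the end of Abcb8.

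The 10 kb limit decided a few of these counts. Just inside it were the weaker Nos3 peak, 9818 bases from the gene, and the Pdgfrb peak, 9049 bases away. Just outside were peaks 11694 bases from Plvap, 12020 from Nos3, 12557 from Vegfb and 12800 from Fli1, genes that had another peak, and those near Lyl1 and Esam. At the 1 kb limit around start sites, the peaks of Erg and Vegfa lay 827 and 818 bases away at their nearer edge, and the upstream Nrp1 peak 1518 bases away.

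Start-site peaks followed the CpG content of the promoter, taken as 250 bases before and 50 after the start. Over the 21044 promoters of coding genes, a peak lay within 1 kb of 2.11% of those with 0 to 4 CpG and 13.5% of those with 5 to 9. The share was 51.2% with 10 to 19, 80.5% with 20 to 29 and 95.3% with 30 or more. The 19 vascular genes had 24 promoters, with a peak at 0 of 5, 0 of 2, 5 of 8, 3 of 4 and 5 of 5 in the same order. The 13 vascular promoters with a peak held a median of 26 CpG (range 14 to 37) and those without, 11 in all, a median of 7 (2 to 22). Over all promoters the medians were 25 and 5.

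Nrp2 (37 CpG), Efnb2 and Vegfc (35 each), Vegfb (31) and Ets2 (30) made up the CpG-richest class, and all 5 had a peak. Emcn and Robo4 (2 each), Tek (3), and Tie1 and Lyl1 (7 each) were at the other end and had none. Kdr (19) and the second Tal1 promoter (22) had none although they held more CpG than the first promoter of Erg (16) or the promoters of Ephb4 and Nrp1 (14 each), which had one. Of the 7 genes without a start-site peak among the 19 with a start site, 5 thus had fewer than 10 CpG in the promoter; the promoters of the other 15 vascular genes were not analysed here. The part of base composition in the presence of a peak was not tested, and promoters of 1 gene are not independent.

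**Figure D3:**
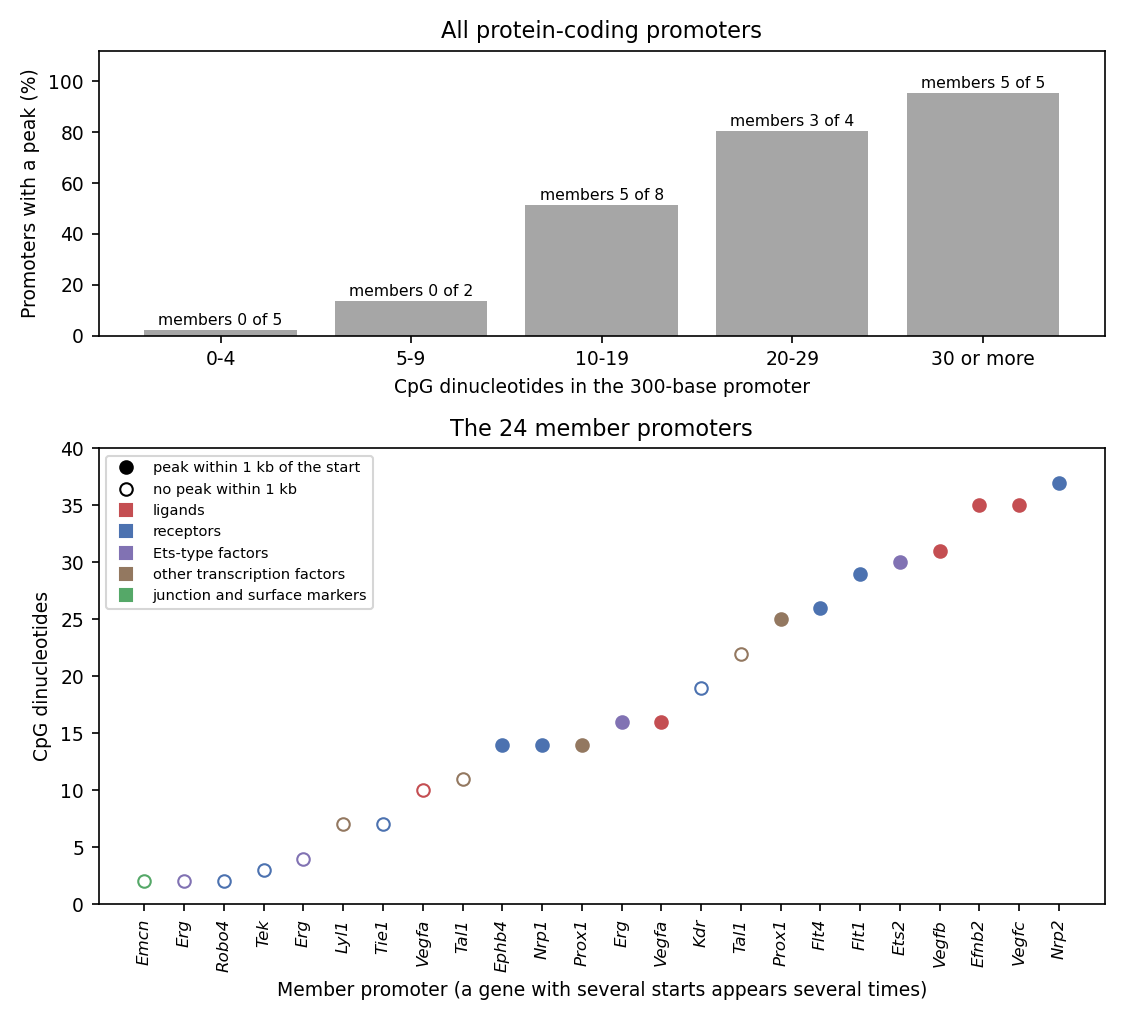
Above, the share of all coding promoters with a peak within 1 kb (%), by the number of CpG dinucleotides in the 300-base promoter, with the count of vascular promoters over each bar. Below, the CpG number of each of the 24 vascular promoters, coloured by role; filled points have a peak and lie at 14 CpG or more, and open points include Kdr at 19 and Tal1 at 22.

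Short motifs were searched in the same promoters on both strands. The GC box GGGCGG was found in 13 of 13 vascular promoters with a peak, against 74.3% of all promoters with a peak, and in 16 of all 24 (66.7%), against 46.7% of all promoters. Ets motifs, CGGAAGT or AGGAAGT, were found in 1 of 24, against 16.7% of all promoters. The one was at Flt1, 53 bases before its start and on its own strand. GATA motifs (TGATAA or AGATAA) were found in 5 of 24 against 15.8%, namely at Emcn, Tek, Vegfa, Tal1 and Erg. E-boxes (CAGCTG or CATCTG) were found in 5 of 24 against 27.8%, at Kdr, Prox1, Robo4, Tal1 and Tie1. The TATA motif TATAAA was found in 4 of 24 against 12.7%, AP-1 motifs (TGACTCA, whose reverse complement is TGAGTCA) in 0 of 24 against 4.69%, and hypoxia motifs (TACGTG or GACGTG) in 1 of 24, at the inner Vegfa start, against 10.2%. None of the motifs contains another. These are matches of letters in a short window, and most of the peaks lay outside it.

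In wider lists of vascular genes, transcription factors had a peak more often than surface markers, a difference that was not tested. The share over all coding genes was 57.6%. Among 20 other transcription factors of endothelium, 18 had a peak in the window (90%), with Nr2f2, the venous factor, at 10.4-fold, Hey2, an arterial Notch target, at 9.81-fold and Ldb1, a partner of Lmo2, at 8.39-fold. Tcf3, the E-protein partner of Tal1, had 8.92-fold, but that peak was nearest to Mbd3. Mef2c and Meox2 had none. Of 22 other Ets family genes 15 had one (68.2%), led by Etv5 (12.9-fold, 108 bases from a gene end), Elf2 (8.43) and Etv3 (7.93), and Etv1 and Etv4 had none. A peak of 8.57-fold in the window of Erf, an Ets repressor, was nearest to Gsk3a.

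Other ligands and receptors stood at 26 of 39 (66.7%), against 57.6% of all coding genes. Notch4, an endothelial Notch receptor, reached 12.6-fold, Sema3c, a semaphorin that binds neuropilins, 10.8-fold, Unc5b, a netrin receptor of endothelial tip cells, 10.3-fold, and Hif1a, the hypoxia factor listed here as an upstream regulator, 9.99-fold. Pgf and Vegfd, the remaining VEGF family ligands, had none. Other surface and junction markers stood at 13 of 28 (46.4%), with Tjp1, a tight junction scaffold, at 8.34-fold, Podxl, a sialomucin, at 7.33-fold and Egfl7, a secreted endothelial protein, at 6.75-fold. A 5.89-fold peak near Jam2 was nearest to Atp5j, and Cldn5 and Icam2, both endothelial, had none. The median span of the other transcription factors was 11.8 kb and that of the other surface markers 19.3 kb.

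Markers of other cells in the uterus had peaks in 33.3% to 60% of each list, against 57.6% of all coding genes. Epithelial markers stood at 4 of 12 (33.3%), among them Epcam at 6.53-fold, stromal markers at 4 of 10 (40%) with Fn1 at 8.26-fold, and immune markers at 4 of 10 (40%) with Spi1 at 6.11-fold. Of 10 smooth muscle markers 6 had one (60%), Mylk reaching 9.69-fold. Mural cell markers, which pericytes and vessel muscle share, stood at 6 of 12 (50%), with Kcnj8, a potassium channel of pericytes, at 7.998-fold and Notch3 at 5.27-fold. Krt8, Col1a2, Ptprc, Acta2 and Rgs5 had none. Median gene span was 6.37 kb in the epithelial list and 20.8 to 37.0 kb in the others. Coding genes under 10 kb had a peak in 41.5%. Des, Acta2, Myh11, Tagln and Cnn1 were in both the smooth muscle and the mural list, and Spi1 was also among the other Ets family genes. The lists were not tested against each other.

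**Figure D4:**
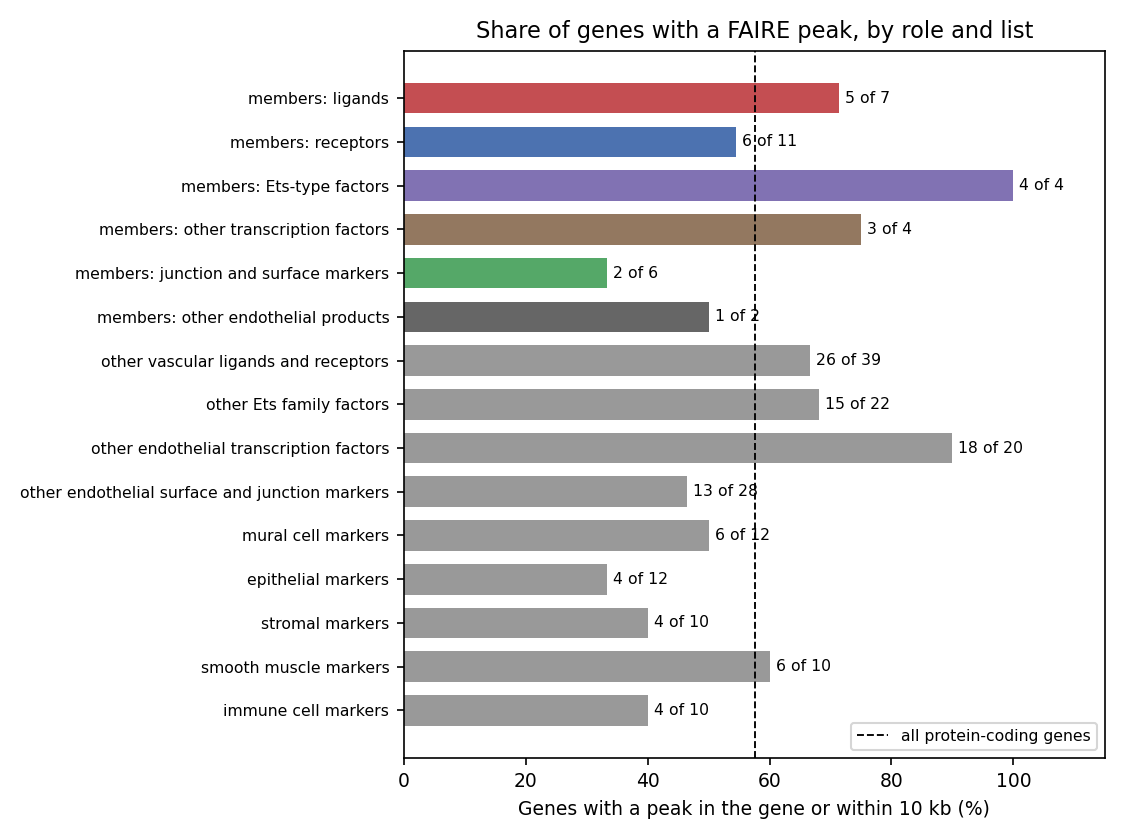
Share of genes with a peak in the gene span or its 10 kb flanks (%), for the 6 roles of the vascular genes (coloured) and for 9 other lists (grey), with counts beside the bars. The dashed line is the share over all protein-coding genes (57.6%); transcription factors lie above it in all 4 lists of them, and endothelial junction and surface markers below it in both.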

How the data were processed

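DNA from whole uteri was profiled by FAIRE-seq in 3 samples of 1 group. The labels' growth protocol gives 3 mice and the design text 4 with RNA; only the DNA data were used. Bowtie2, HOMER, MACS2 and FastQC, and the build GRCm38.p5, are named in the submitters' processing notes without versions or parameters. The sources used here do not give the call threshold, any input control or whether libraries were pooled. For each peak the deposited table holds, per the file headers, a pileup, taken as a signal height, a fold enrichment, taken as a ratio to local background, and the −log10 q-value. Library depth is unknown.

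Gene spans came from RefSeq (GRCm38.p6) on chromosomes 1 to 19 and X. Of that table, 340 genes with a start below 3 Mb, taken as scaffold coordinates, were left out. Start sites and sequences came from the RefSeq promoter table. All members matched by symbol. Peaks were counted with Python 3.11.15, pandas 2.3.3 and numpy 2.4.6. The counting code was checked on simulated data: 200 of 200 placed peaks were recovered over 21519 genes. They were placed close to a start site, or to a gene end where no start is given. They lay inside the counted window by design, so this checks the code alone. No test between samples was possible. Motif letters were searched with no mismatch.

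All members are named. Of every other list, up to 4 genes with the highest fold and up to 2 with no peak were eligible to be named. Members and lists were chosen with earlier results of these data known. Alternatives changed the window, the overlap, the peak threshold and the genes counted.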

Additional observations from a re-analysis of the deposited data

How the results depend on the processing

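No paired analysis was possible because the table names no sample, and for the same reason no sample could be left out in turn. Of the other alternatives to the counts over all genes or by role, 65 of 89 values stayed within 1.5 times the reported count, or, for the median fold, within its 95% order-statistic interval (4.25 to 6.01). Those that moved mostly used fewer peaks or other windows. Among the 6207 peaks with the highest fold, 10 members had a peak (29.4%, against 36.2% of coding genes), 3 had one at a gene end, and 10 peaks remained in the windows, 7 of them nearest to a member's end, with a median of 6.63. Ligands then stood at 1 of 7, receptors at 2 of 11 and Ets-type factors at 2 of 4. Other transcription factors stood at 2 of 4. Junction and surface markers stayed at 2 of 6, and so were not below the ligands and receptors there. Among the 6207 with the highest −log10 q the values were 9 (26.5%, against 35.8%), 4, 9, 7 and 6.88, with 2 ligands, 2 receptors, 2 Ets-type factors, 1 other transcription factor and 1 junction or surface marker. With no flank, junction and surface markers stood at 1 of 6 and other products at 0 (48.8% of coding genes had a peak). With 5 kb the markers stood at 1 (54.2%), and with 50 kb at 5, with 65 peaks in all windows (70.8%). The low count of the markers thus turned to one above the coding genes at 50 kb, where 26 of the 65 peaks were nearest to a member's end. Among the 21 members with no other coding gene end within 10 kb, 13 had a peak (61.9%), with no matching share of coding genes counted. Keeping the scaffold genes, or using either annotated end for every gene, both added after seeing the data, left these counts as they were. Peak counts of single members moved in 52 of 272 cases.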
